A study of Mus musculus with 8 samples.

Results

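The genes described here are the nuclear genes for subunits of the respiratory chain and ATP synthase, measured in MB21 cells after 5 days with the compound DS-1-38 or with its vehicle. They were chosen by symbol from the annotation's protein-coding genes: the Nduf subunit genes of complex I, Sdha to Sdhd of complex II, the Uqcr genes and Cyc1 of complex III, the Cox4 to Cox8 genes with a letter suffix of complex IV, and the Atp5 genes of complex V. Pseudogenes and assembly factors were left out. The rule also takes in Atp5s, which is named with ATP synthase but is not a subunit of the enzyme; it was not called and is counted with the members. The rule found 84 of the 55416 gene identifiers in the table, 37 in complex I, 4 in complex II, 9 in complex III, 16 in complex IV and 18 in complex V. Of these, 79 passed the filter on low counts that 15133 identifiers passed in all, and the other 5 are accounted for under complexes IV and V.

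MB21 is a mouse medulloblastoma line whose labels give a ptch mutation, carried by every library of both groups. Cells grew without attachment. The DS38 group received 10 µM DS-1-38, described in the labels as a benzarone derivative, and the DMSO group received vehicle, with 4 libraries in each group. The labels name a single line and do not say that the libraries came from separate cultures, so p-values measure the spread between these libraries, which may be technical.

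The respiratory chain passes electrons from NADH, through complex I, and from succinate, through complex II, to coenzyme Q, then through complex III and cytochrome c to oxygen at complex IV. The proton gradient built on the way drives ATP synthase, complex V. Most subunits are encoded in the nucleus and imported, a small set is encoded in mitochondrial DNA, and several nuclear subunits exist as paired isoforms made in different tissues. The genes keep the older symbols of the annotation, so that Atp5b is the gene now called Atp5f1b and Atp5g1 is Atp5mc1.

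Library totals ran from 17142397 to 28476019 counts and overlapped between the groups. The DS38 libraries fell into 2 pairs. The chi-square per degree of freedom between libraries was 4.81 within replicates 1 and 2 and 4.33 within replicates 3 and 4. It was 12.02 to 20.98 between these pairs, 4.59 to 8.38 within DMSO, and 16.7 to 49.8 between DMSO and DS38 libraries. No label explains the pairs, and counts without each pair are given below. All 9 progenitor markers listed were present, at a summed 1830 to 1880 CPM (counts scaled to a common library total) in DMSO and 1950 to 2050 CPM in DS38. Of the 9, 4 were higher and 3 lower in DS38, among them the progenitor factor Atoh1 (log2 fold change 0.60) and the Hedgehog target Gli1 (-0.60). Microglial markers summed to at most 0.14 CPM in any library, with Cx3cr1 at 0, and both haemoglobin genes listed were at 0. Astrocyte markers summed to 1.28 to 2.33 CPM in DMSO and 2.85 to 3.48 CPM in DS38. Fibroblast markers summed to 70.2 to 74.8 CPM in DMSO and 50.5 to 54.5 CPM in DS38, nearly all of it Pdgfra (log2 fold change -0.52), while Col1a1 was under 1 CPM on average in both groups and higher in DS38 (log2 fold change 1.81). The part of these markers in the results below was not tested. In bulk RNA, fewer cells of a type and less RNA per cell cannot be told apart.

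In DS38, 32 of the 79 tested subunit genes were lower than in DMSO and 2 were higher, by edgeR's quasi-likelihood test at an adjusted p under 0.05. The 32 are 40.5% of the members. Among all genes tested, 39.5% were called, 20.7% lower and 18.8% higher, so the members were called about as often as other genes (43.0%) but nearly always in the lower direction. Their median log2 fold change was -0.154, against -0.00932 over all genes, and 60 of the 79 estimates were below 0. The 4 DS38 values lay wholly below the 4 DMSO values for 24 members and wholly above for 1, where 18.8% and 17.3% of all genes did so. The differences were small: a single member, Cox6a2, passed the threshold with a change of at least 2-fold. Without DS38 replicates 1 and 2, 23 members were lower and 8 higher, where 26.5% of all genes were called, 14.8% lower and 11.7% higher. Without DS38 replicates 3 and 4, 38 were lower and 1 higher, where 34.8% of all genes were called, 18.0% lower and 16.7% higher. The count called higher was 7 without DS38 replicate 1, and 1 without DMSO replicate 3 or 4 or without DS38 replicate 2 or 3.

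Scaled by library totals alone, without TMM factors, 26 members were lower and 8 higher, where 40.2% of all genes were called, 14.3% lower and 25.9% higher. Of all genes called, 64.3% were then higher, against 47.5% with TMM.

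**Figure D1:**
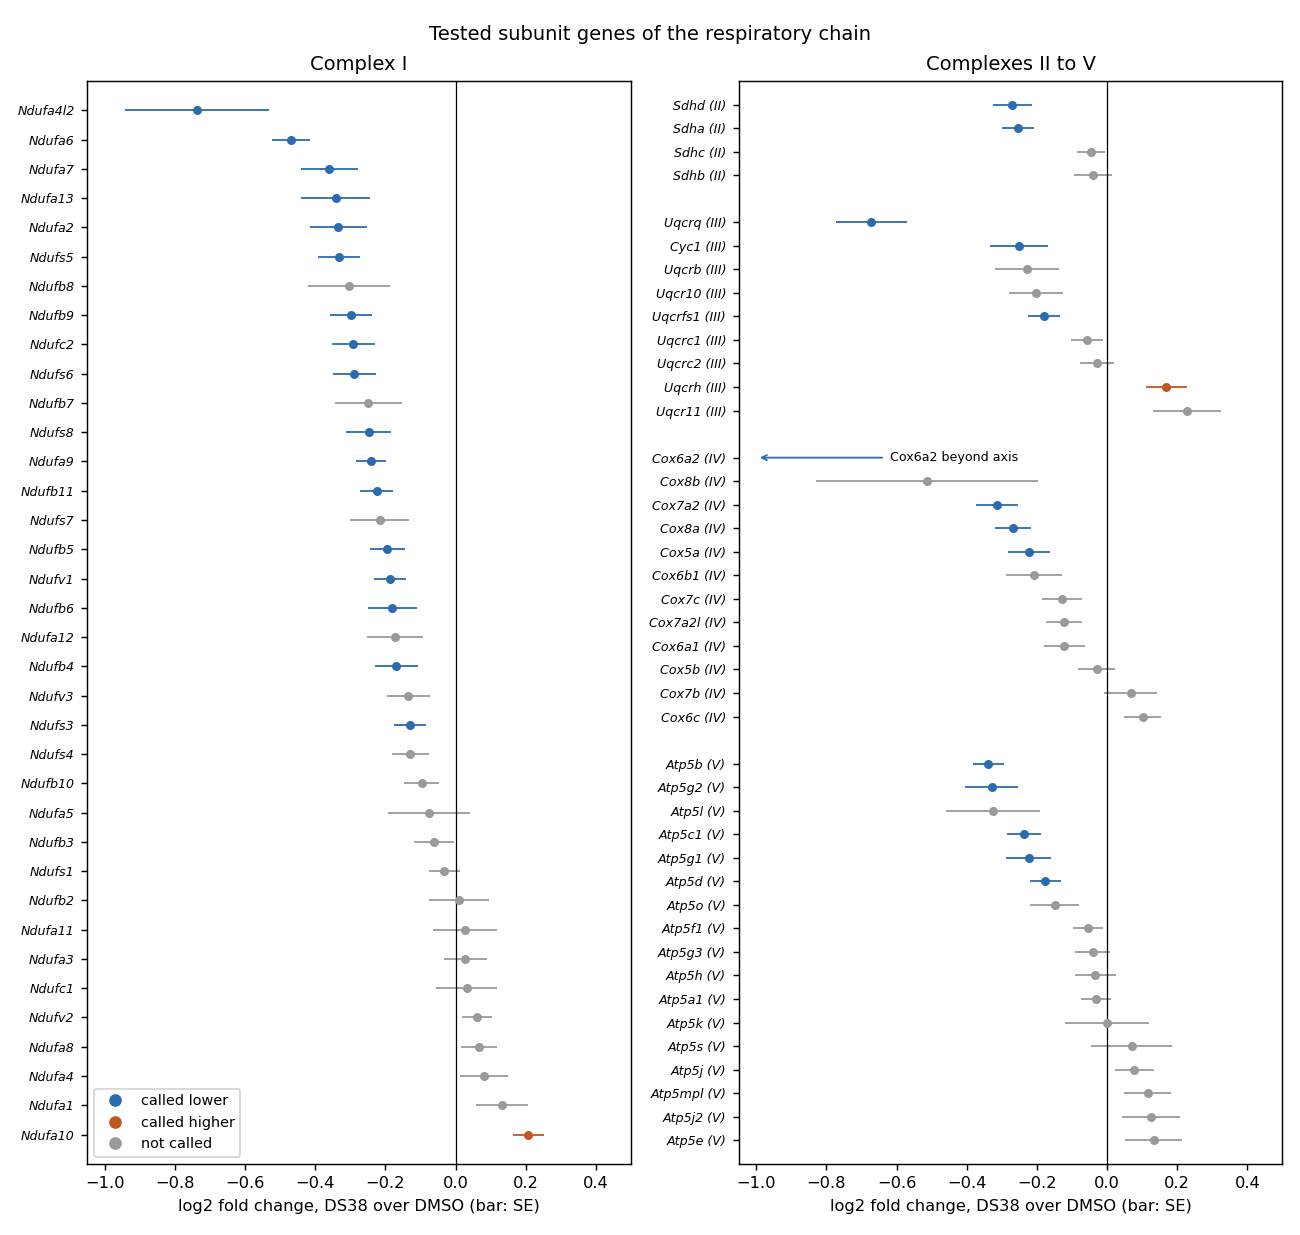
Log2 fold change of DS38 against DMSO for the tested subunit genes, 1 of complex I left out, with bars of 1 standard error, complex I on the left and complexes II to V on the right. Blue points were called lower, orange higher and grey not called; Cox6a2, at -4.17, lies beyond the axis and is marked by an arrow, and most other points lie a little below 0.

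The summed CPM of the 79 genes was 9576 ± 397.4 (SD, n = 4) in DMSO and 8681 ± 489.7 (SD, n = 4) in DS38. The lowest DMSO library, at 9107, was under the highest DS38 library, at 9289, so the groups overlapped in this sum.

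Cox6a2 had the largest change. It encodes the heart and skeletal muscle isoform of cytochrome c oxidase subunit 6A, whose other isoform, Cox6a1, is made in most tissues. Both coding sequences are shown because the contrast below rests on telling the isoforms apart. They are 65.3% identical when aligned, and the longest stretch they share, 12 bases, is in capitals. They are annotated GENCODE M21 coding sequences, whole for Cox6a2 (294 bases) and from base 40 to the last base for Cox6a1 (339 bases).
Cox6a2: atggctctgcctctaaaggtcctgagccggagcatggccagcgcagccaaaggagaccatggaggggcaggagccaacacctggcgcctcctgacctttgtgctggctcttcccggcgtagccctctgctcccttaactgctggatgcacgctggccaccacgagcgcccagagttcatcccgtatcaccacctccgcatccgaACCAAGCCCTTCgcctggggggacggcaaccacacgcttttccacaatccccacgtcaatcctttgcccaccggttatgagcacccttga
Cox6a1: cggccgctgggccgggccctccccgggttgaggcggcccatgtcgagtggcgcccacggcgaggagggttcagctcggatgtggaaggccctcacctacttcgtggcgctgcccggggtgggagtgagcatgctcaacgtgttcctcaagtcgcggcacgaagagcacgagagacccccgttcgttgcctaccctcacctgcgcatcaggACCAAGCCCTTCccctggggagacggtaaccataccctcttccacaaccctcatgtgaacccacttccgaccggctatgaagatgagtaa

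Cox6a2 was at 4.17, 3.999, 4.62 and 3.52 CPM in the DMSO libraries and at 0.167, 0.379, 0.115 and 0.156 CPM in the DS38 libraries. All 4 DS38 libraries were far below every DMSO library. The log2 fold change was -4.17 ± 0.261 (SE), with an edgeR-adjusted p of 7.52e-10, a 17.9-fold fall. It was the second largest fall of the 15133 genes tested, after Gm49217, and the largest of the 12225 protein-coding genes, ahead of Trib3 at -3.28. These levels rest on few reads, 350 counts in DMSO and 20 in DS38. The ratio of the raw sums, scaled to the library totals, was 17.5, with an exact binomial 95% interval of 11.1 to 29.0 that covers counting error only. Cox6a2 shares 10.3% of its exon bases with Itgad, on the opposite strand, and Itgad had at most 3 counts in any library. Cox6a1 was at 103 ± 5.50 CPM in DMSO and 94.9 ± 8.33 CPM in DS38 (SD, n = 4), a log2 fold change of -0.12 that was not called (edgeR's adjusted p = 0.107), though it was called lower without DS38 replicates 3 and 4 (-0.17, adjusted p = 0.0305). Cox6a2 stayed called without either pair of DS38 libraries, at -4.84 and -3.82.

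**Figure D2:**
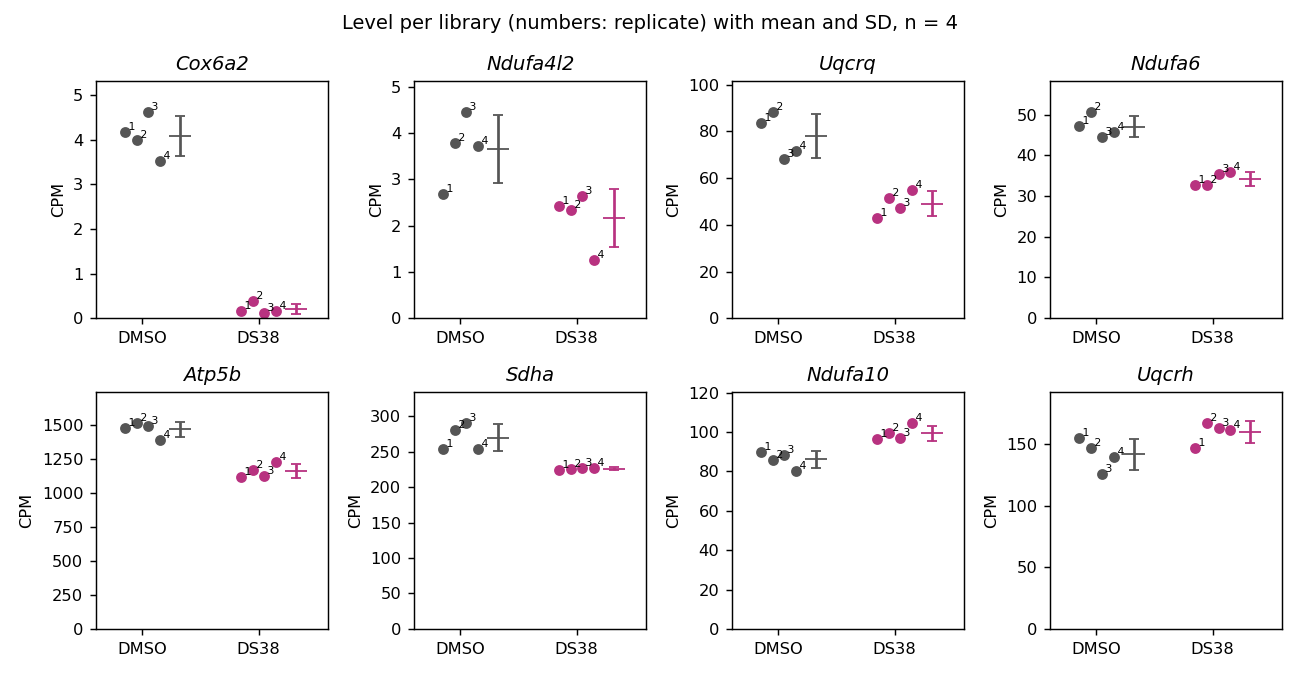
CPM of 8 subunit genes in each of the 4 DMSO and 4 DS38 libraries, one panel per gene with its own axis, with the group mean and SD. The groups are apart for Cox6a2, Ndufa4l2, Uqcrq, Ndufa6, Atp5b and Sdha (DS38 lower) and for Ndufa10 (DS38 higher), and overlap for Uqcrh.

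Complex I takes electrons from NADH. Of its 37 genes, all tested, 18 were lower (48.6%; 20.7% of all genes), 1 was higher (2.7%; 18.8% of all genes) and 18 were not called. The median log2 fold change was -0.173. Without DS38 replicates 1 and 2, 11 were lower. Among the 7 core genes, which carry the flavin and the iron-sulphur clusters or their scaffold, 4 were lower. Ndufv1, which encodes the subunit that binds NADH, was at 122 ± 6.93 CPM in DMSO and 107 ± 4.36 CPM in DS38 (SD, n = 4), and its log2 fold change of -0.19 had an edgeR-adjusted p of 0.0034, a call lost without DS38 replicates 1 and 2 (adjusted p = 0.0544). Ndufs1, which encodes the largest iron-sulphur subunit, was at 118 ± 4.56 and 116 ± 5.78 CPM (SD, n = 4) and was not called (edgeR's adjusted p = 0.591).

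Of the 30 accessory genes of complex I, 14 were lower (46.7%; 20.7% of all genes) and 1 was higher (3.33%; 18.8% of all genes). By symbol, the 30 include Ndufa4 and Ndufa4l2, which are described below. The smallest p belonged to Ndufa6, which encodes an accessory subunit of the LYR family. It was at 47.1, 50.6, 44.5 and 45.8 CPM in DMSO and at 32.61, 32.65, 35.3 and 35.8 CPM in DS38. No DS38 library reached the lowest DMSO library, and the log2 fold change was -0.47 ± 0.0535 (SE; edgeR's adjusted p = 1.94e-06). Ndufa9, a subunit that binds NADPH, fell by 0.24 on the log2 scale, Ndufs5 by 0.33 and Ndufb9 by 0.30 (edgeR's adjusted p = 0.000225, 0.000278 and 0.0006), and the groups did not overlap in any of the 3.

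Ndufa10, an accessory subunit related to nucleoside kinases, went the other way. It was at 89.8, 85.9, 88.5 and 80.1 CPM in DMSO and at 96.7, 99.5, 96.7 and 104.7 CPM in DS38. Every DS38 library was above every DMSO library, with a log2 fold change of 0.21 ± 0.0448 (SE; edgeR's adjusted p = 0.00126).

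Ndufa4 and Ndufa4l2 are placed in complex I by their symbols, although Ndufa4 is known as a subunit of complex IV and Ndufa4l2 as its relative induced in low oxygen. Ndufa4l2 was at 2.69, 3.78, 4.46 and 3.73 CPM in DMSO and at 2.43, 2.34, 2.65 and 1.249 CPM in DS38. The DS38 values lay below the DMSO values, narrowly so for the highest DS38 and lowest DMSO library, and the log2 fold change was -0.74 ± 0.205 (SE; edgeR's adjusted p = 0.00857). Ndufa4 was at 208 ± 13.3 and 220 ± 22.4 CPM (SD, n = 4) and was not called (edgeR's adjusted p = 0.375).

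Complex II, succinate dehydrogenase, also belongs to the citric acid cycle. Of its 4 genes, 2 were lower (20.7% of all genes) and none higher (18.8% of all genes). Of these 2, 1 was from the part facing the matrix and 1 from the membrane anchor. Sdha, the flavoprotein that oxidises succinate, was at 253.6, 280.0, 291.0 and 253.9 CPM in DMSO and at 224.0, 226.1, 227.6 and 227.1 CPM in DS38. The DS38 libraries lay close together and below all DMSO libraries, with a log2 fold change of -0.25 ± 0.0452 (SE; edgeR's adjusted p = 0.00023). Sdhd, an anchor subunit, fell by 0.27 on the log2 scale (edgeR's adjusted p = 0.000861), and its highest DS38 library, at 99.65 CPM, all but met its lowest DMSO library, at 99.67 CPM. Sdhb, the iron-sulphur subunit, and Sdhc, the other anchor subunit, were not called, with log2 fold changes of -0.04 and -0.05 (edgeR's adjusted p = 0.579 and 0.38).

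Complex III passes electrons from coenzyme Q to cytochrome c. Of its 9 genes, 3 were lower (33.3%; 20.7% of all genes) and 1 was higher (11.1%; 18.8% of all genes). Uqcrq, a small subunit next to cytochrome b, was at 83.6, 88.3, 68.3 and 71.8 CPM in DMSO and at 42.9, 51.5, 47.2 and 54.7 CPM in DS38. The groups were well apart, and the log2 fold change was -0.67 ± 0.101 (SE; edgeR's adjusted p = 0.000791). It was the largest fall among the members after Cox6a2 and Ndufa4l2. Uqcrfs1, the Rieske iron-sulphur protein, and Cyc1, cytochrome c1, fell by 0.18 and 0.25 on the log2 scale (edgeR's adjusted p = 0.00384 and 0.0353), and the groups overlapped for Cyc1. The call of Cyc1 was lost without any single library of DMSO replicates 1 to 3 (adjusted p = 0.0843, 0.0946 and 0.0596) or of DS38 replicates 1 to 3 (0.0788, 0.0751 and 0.0625). Uqcrfs1 was not called without DS38 replicates 1 and 2 (adjusted p = 0.0664). Without DS38 replicate 4, 5 genes of complex III were lower, and without DS38 replicates 1 and 2, 1 was. Uqcrc1, a core protein, was not called (log2 fold change -0.06, edgeR's adjusted p = 0.348).

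Uqcrh, the hinge protein that docks cytochrome c, was at 155.3, 146.9, 125.9 and 139.3 CPM in DMSO and at 147.1, 167.5, 162.8 and 161.3 CPM in DS38. The groups overlapped, since the highest DMSO library was above the lowest DS38 library. Its log2 fold change was 0.17 ± 0.0581 (SE; edgeR's adjusted p = 0.0312), and the call was lost without DMSO replicates 3 or 4 (adjusted p = 0.094 and 0.0812) and without DS38 replicates 2 or 3 (0.0959 and 0.0538).

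Complex IV, cytochrome c oxidase, reduces oxygen. Of its 16 genes, 12 were tested and 4 of these were lower (33.3%; 20.7% of all genes): Cox6a2, Cox7a2, Cox8a and Cox5a. Cox7a2, the isoform of subunit 7A made in most tissues, was at 152 ± 6.78 CPM in DMSO and 123 ± 11.9 CPM in DS38 (SD, n = 4), with a log2 fold change of -0.31 (edgeR's adjusted p = 0.000864). Cox8a, the widely made isoform of the smallest nuclear subunit, fell by 0.27 and Cox5a, a subunit on the matrix side, by 0.22 on the log2 scale (edgeR's adjusted p = 0.000507 and 0.00679). Cox5a was not called without both libraries numbered 1 (adjusted p = 0.0745), and without DS38 replicate 4, or without replicates 3 and 4, the genes of complex IV called lower were 7. Cox6b1, on the side facing the intermembrane space, and Cox7a2l, known for its place in supercomplexes, were not called, with log2 fold changes of -0.21 and -0.12 (edgeR's adjusted p = 0.0627 and 0.0608); Cox6b1 was called lower without DS38 replicates 3 and 4 (adjusted p = 0.00366).

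Genes of complex IV known from muscle or testis were scarce. Cox7a1, a muscle isoform, had 37 counts in all in DMSO and 26 in DS38. Cox6b2, a testis isoform, had 33 in each group and Cox7b2 had 1 in each. Cox8c had 0 counts in every library, so that a level of up to 0.175 CPM, 3 counts in the smallest library, could be missed. None of these 4 was tested. Cox8b, a muscle isoform, was tested at 0.748 ± 0.222 and 0.521 ± 0.150 CPM (SD, n = 4) and was not called (edgeR's adjusted p = 0.212).

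Complex V makes ATP in its F1 part, which is turned by the ring of c subunits in the membrane. Of 18 identifiers, 17 were tested, and 5 of these were lower (29.4%; 20.7% of all genes) and none higher. In all 29.4% were called, where 39.5% of all genes were. The untested identifier, ENSMUSG00000116933, is a second entry for Atp5o with 0 counts. Its median was nearer 0 than in complexes I to IV, at -0.041. In the F1 part 3 of 5 genes were lower: Atp5b, Atp5c1 and Atp5d, which encode the catalytic beta subunit, the central shaft and the delta subunit. Atp5b was at 1478, 1517, 1489 and 1390 CPM in DMSO and at 1120, 1172, 1122 and 1230 CPM in DS38. No DS38 library reached the DMSO range, and the log2 fold change was -0.34 ± 0.0443 (SE; edgeR's adjusted p = 9.44e-06). Atp5a1, which encodes the alpha subunit that alternates with beta in F1, was at 917 ± 30.4 and 897 ± 35.9 CPM (SD, n = 4) and was not called (edgeR's adjusted p = 0.576). None of the 4 peripheral stalk genes and none of the 4 genes for small membrane subunits was called in either direction.

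Atp5g1, Atp5g2 and Atp5g3 encode the same mature c subunit behind different import sequences. Atp5g2 and Atp5g1 fell by 0.33 and 0.22 on the log2 scale (edgeR's adjusted p = 0.00515 and 0.0132), while Atp5g3 had a log2 fold change of -0.04 (edgeR's adjusted p = 0.541). Atp5g1 was not called without both libraries numbered 1 (adjusted p = 0.0648). Counted per length, Atp5g3 made up 54.1% ± 2.24 of the family in DMSO and 58.6% ± 0.696 in DS38 (SD, n = 4), and Atp5g2 made up 36.1% ± 2.45 and 32.1% ± 0.454. Cox6a2 made up 3.93% ± 0.515 of the Cox6a pair in DMSO and 0.221% ± 0.123 in DS38 (SD, n = 4). By a two-sided exact permutation test, p was 0.0286 for Atp5g3 and for Cox6a2, the smallest that 4 against 4 libraries allow, and 0.0571 for Atp5g2. Over the 6 isoform shares tested, the adjusted p was 0.0857 for each of the 3, so none passed. With 4 against 4 libraries, a share at the smallest p could not pass this adjustment by itself. The test therefore cannot decide whether any single share differed.

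Per length, the members spanned a wide range in DMSO. Atp5b was the highest, at 347 RPKM (reads scaled to gene length and library total), followed by Atp5a1 at 293 and Cox6b1 at 277 RPKM. Ndufa4l2 was at 3.35, Cox8b at 2.08 and Cox6a2 at 5.997 RPKM. The length is the deposited one, which joins all annotated exons of a gene.

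Short genes had lower fold changes than long ones, and subunit genes are short. Over all genes tested, the median log2 fold change went from -0.231 in the shortest of 10 equal-sized length classes (56 to 899 bases) to 0.0663 in the longest, and Spearman's rho between length and fold change was 0.223 over 15133 genes of the same 8 libraries. Over the 79 members alone, rho with length was 0.128. With median annotated transcript length, rho was -0.0646 over the members and 0.226 over all genes. The members' median length was 1675 bases. Among the 8331 tested genes between the 5th and 95th percentile of member lengths, 22.6% were lower and 14.6% higher, with a median of -0.0327. The members' 40.5%, 2.53% and -0.154 stand against these values, from genes with a longer median length of 2763 bases. Of 6586 genes in the same percentile range of median annotated transcript length, 23.9% were lower and 12.8% higher, with a median of -0.0644. In the shortest of 10 such classes, with 34 members, the members' median was -0.154 and that of all genes -0.172. In every other class with members, theirs was below that of all genes.

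**Figure D3:**
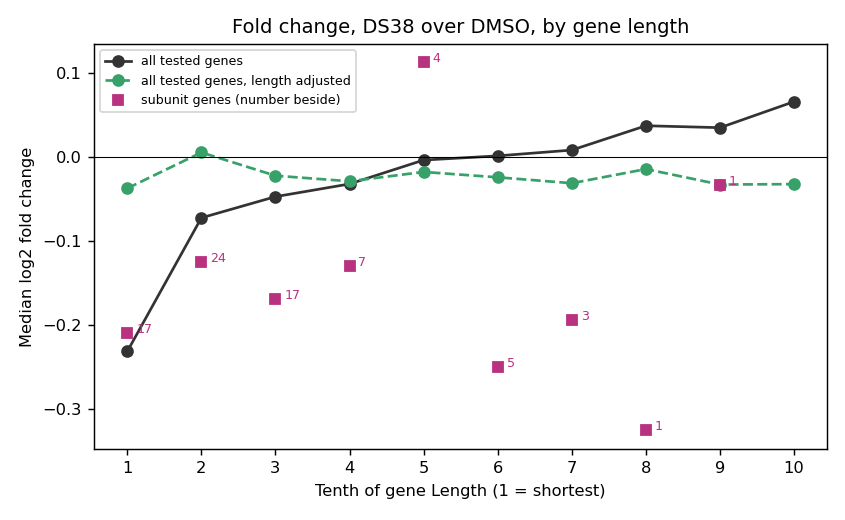
Median log2 fold change, DS38 against DMSO, in 10 equal-sized classes of gene length from shortest to longest, for all tested genes before and after the length adjustment and for the members in each class, with their number beside the point. Before adjustment all genes run from -0.231 to 0.0663; after it they stay near 0, and the members lie below all unadjusted genes except in classes 1 and 5.

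The fit was repeated with a length trend, estimated in each library over all genes, taken out, and 40.5% of all genes were called. Then 28 of the 79 members were lower (35.4%; 23.7% of all genes) and 11 were higher (13.9%; 16.8% of all genes), and the members' median was -0.105 against -0.0245. Of the 32 members lower before, 27 stayed lower, while Cox8a, Ndufa2, Ndufb11, Ndufb6 and Ndufs3 were no longer called. Cox8a, which is under 1000 bases long, went from -0.27 to -0.09 (edgeR's adjusted p = 0.534). Ndufb8 was newly called lower. The 9 newly called higher were Atp5e, Atp5k, Atp5mpl, Cox7b, Ndufa1, Ndufa3, Ndufa4, Ndufa8 and Uqcr11. Ndufa10 and Uqcrh were higher in both fits.

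By complex, the adjusted counts were 15 lower and 5 higher of 37 in complex I, 2 and 0 of 4 in complex II, 3 and 2 of 9 in complex III, 3 and 1 of 12 in complex IV, and 5 and 3 of 17 in complex V. Over all genes, 23.7% were lower and 16.8% higher in this fit. The adjusted log2 fold change was -3.999 for Cox6a2, -0.64 for Uqcrq, -0.63 for Ndufa4l2, -0.43 for Ndufa6, -0.36 for Atp5b and -0.28 for Sdha, all still called. Other falls shrank: Ndufs5 went from -0.33 to -0.20, Cox7a2 from -0.31 to -0.20, and Ndufa2 from -0.33 to -0.15, where it was no longer called. A further fit used the median length of a gene's annotated protein-coding transcripts, and was added after the values were seen. In it 27 members were lower (34.2%; 22.4% of all genes) and 13 higher (16.5%; 17.5% of all genes), where 40.0% of all genes were called, with a median of -0.0828 against -0.0187. Cox8a, Ndufa2 and Ndufb11, whose calls were lost with the first length adjustment, were called lower in it (edgeR's adjusted p = 0.0375, 0.0147 and 0.00361). Cyc1, Ndufb4 and Ndufb5 lost their calls only in the transcript-length fit, and Ndufb6 and Ndufs3 in both. In all 3 fits 24 members were lower, where 18.0% of all genes were, and 2 were higher, where 14.5% of all genes were.

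**Figure D4:**
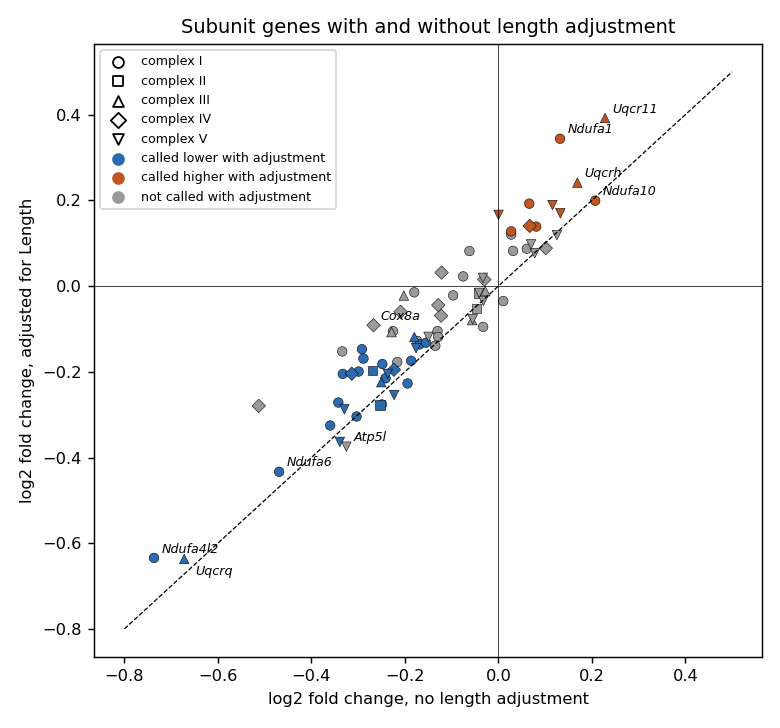
Log2 fold change of each tested member without the length adjustment (horizontal) and with it (vertical), with the complex shown by shape and the call with the adjustment by colour, Cox6a2 omitted because it lies below -1. Points above the diagonal moved up with the adjustment; Uqcrq, Ndufa4l2 and Ndufa6 stay low in both.

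Length trends differed between libraries of 1 group as well as between groups. In single libraries, rho between gene length and a gene's deviation from the DMSO mean was 0.0108, -0.312, 0.107 and 0.11 in DMSO and 0.345, 0.225, 0.0951 and 0.0336 in DS38. The members' median deviation was 0.0416, 0.0626, -0.0391 and -0.0667 in DMSO and -0.264, -0.138, -0.153 and -0.0364 in DS38. DS38 replicate 1 had both the steepest trend and the lowest members, and DS38 replicate 4 had members within the DMSO range. Without both libraries numbered 1, 27 members were lower (18.2% of all genes) and 9 higher (16.4% of all genes), where 34.6% of all genes were called.

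**Figure D5:**
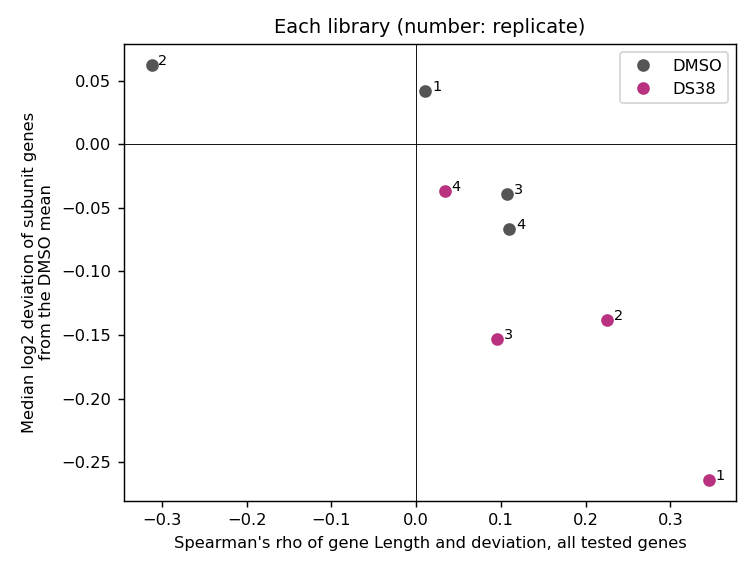
One point per library: rank correlation (rho) between gene length and deviation from the DMSO mean over all tested genes (horizontal), and the median log2 deviation of the 79 members (vertical). DS38 replicate 1 lies at 0.345 and -0.264; DS38 replicate 4 lies at 0.0336 and -0.0364, among the DMSO libraries.

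Genes that overlap another gene can share reads where strand was not used in counting, and no source used here gives the strand setting. In the annotation, 18 of the 79 members shared at least 5% of their exon bases with another gene. Of the other 61, 23 were lower (37.7%; 20.7% of all genes) and 2 higher (3.28%; 18.8% of all genes), with a median of -0.135.

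Genes of the wider pathway were counted from lists. Of 53 tested assembly factors, which insert cofactors and join subunits, 15 were lower (28.3%; 20.7% of all genes) and 3 higher (5.66%; 18.8% of all genes), with a median of -0.103. With the length adjustment 12 were lower (22.6%; 23.7% of all genes) and 2 higher (3.77%; 16.8% of all genes). The smallest p-values belonged to Cox14, a complex IV assembly factor, and Ecsit, a complex I assembly factor, which fell by 0.46 and 0.34 on the log2 scale (edgeR's adjusted p = 0.000127 and 0.000541). Of 11 genes for coenzyme Q synthesis, 4 were lower (36.4%) and 2 higher (18.2%), with a median of -0.0724. With the length adjustment 4 were lower (36.4%; 23.7% of all genes) and none higher (16.8% of all genes). Coq2, which joins the ring to its tail, fell by 0.56 and Coq9, which presents the lipid to other Coq enzymes, by 0.39 on the log2 scale (edgeR's adjusted p = 2.47e-06 and 1.85e-05).

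Of 15 regulators of mitochondrial biogenesis and DNA upkeep, 6 were lower (40.0%; 20.7% of all genes) and 1 higher (6.67%; 18.8% of all genes), with a median of -0.0514. With the length adjustment 6 were lower (40.0%; 23.7% of all genes) and none higher (16.8% of all genes). Polg, the mitochondrial DNA polymerase, fell by 0.26 and Gabpb2, a partner of the ETS factor GABPA, by 0.18 on the log2 scale (edgeR's adjusted p = 7e-05 and 0.0029). Of 3 tested carriers and subunits that the symbol rule misses, Cycs (cytochrome c) and Ndufab1 (the acyl carrier subunit of complex I) fell by 0.27 and 0.20 on the log2 scale (edgeR's adjusted p = 0.00286 and 0.00454). Cox4i1, the remaining gene, was at 256 ± 18.9 and 260 ± 10.1 CPM (SD, n = 4) and was not called.

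Of the 13 subunit genes carried by mitochondrial DNA, 6 were higher (46.2%; 18.8% of all genes), none was lower and 7 were not called, with a median of 0.333. With the length adjustment 6 were higher (46.2%; 16.8% of all genes) and none lower. The genes called were not all the same in the 2 fits. mt-Nd2 and mt-Nd1, both of complex I, rose by 0.51 and 0.43 on the log2 scale (edgeR's adjusted p = 0.00337 and 0.00141). mt-Nd1 was at 960.3 to 1315 CPM in DMSO and at 1499 to 1607 CPM in DS38, with no overlap.

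Promoters of these genes are known for sites of NRF1 and of ETS factors such as GABPA. The 250 bases before the start were read from RefSeq on GRCm38.p6 for the 64 tested members with an entry and searched on both strands for the letters GCATGCGC (NRF1 core), CCGGAAG (ETS core) and AAGATGGC (YY1 core). The NRF1 letters were in 12.5% of these members and in 2.58% of all 26742 genes with an entry, whether or not they were tested here. The ETS letters were in 18.8% and 7.88%, and the YY1 letters in 1.56% and 1.84%. Of 25 members called lower with an entry, 2 held the NRF1 letters and 3 the ETS letters, and of 37 not called, 6 and 8 did. A match is a run of letters and shows no binding. The promoters of Ndufa6, lower in DS38, and Uqcrh, higher in DS38, are shown as examples with their matches in capitals. They lie at chr15:82354292-82354541 and chr4:116075071-116075320, both on the minus strand, and are written 5′ to 3′ along the gene.
Ndufa6: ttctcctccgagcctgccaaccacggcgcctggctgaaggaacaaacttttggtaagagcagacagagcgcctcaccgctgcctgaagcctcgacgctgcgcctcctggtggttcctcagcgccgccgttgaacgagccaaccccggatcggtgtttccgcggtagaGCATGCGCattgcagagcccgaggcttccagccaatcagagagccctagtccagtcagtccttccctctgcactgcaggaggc
Uqcrh: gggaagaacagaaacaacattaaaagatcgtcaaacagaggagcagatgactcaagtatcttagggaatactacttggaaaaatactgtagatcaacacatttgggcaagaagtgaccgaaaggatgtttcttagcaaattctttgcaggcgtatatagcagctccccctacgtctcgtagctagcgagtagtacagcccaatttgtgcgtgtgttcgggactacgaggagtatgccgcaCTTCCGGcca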

How the data were processed

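Messenger RNA libraries of MB21 cells, 4 with DMSO and 4 with DS-1-38, were used as the deposited whole-number read counts per gene, not normalized by the authors, with the deposited gene length. The tools in the submitters' processing notes are STAR (2.7.9a), featureCounts with Subread (2.0.3), and edgeR with R (4.1.0), and the builds are GRCm39 and GRCh38.p13. For the annotation release and strand setting, nothing is given in the sources used here. Symbols, transcript lengths and overlaps came from GENCODE M21, on an earlier build, which matched 52083 identifiers.

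Testing used edgeR 4.0.16 (R 4.3.3): TMM factors (0.9753 to 1.032), the filterByExpr minimum of 10 counts, robust quasi-likelihood, and Benjamini-Hochberg adjustment over 15133 genes. The biological coefficient of variation was 5.53%. SEs were computed from the log2 fold change and the F statistic. The length adjustment fitted a lowess curve (span 0.3) of log2 CPM deviation on log2 length in each library and used it as an offset. Per-library deviations used a pseudocount of 0.5 CPM. The fits were tested on simulated data. Alternatives used DESeq2 1.42.0, limma 3.58.1, other scalings and filters, a replicate block and libraries left out. No 2 libraries agreed within sampling noise. Floors use 3 counts and, like intervals, cover counting error only.

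Members and lists were chosen with earlier results of these data known. Members named were the 4 smallest p of each complex, those called higher, those called with an absolute log2 fold change of at least 0.5, a set of well-known subunits and the isoform families; the list genes named had the smallest p of their list. A member of complex I is counted but not reported here. Members named beyond this, and Cox4i1, were chosen after their values were seen.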

Additional observations from a re-analysis of the deposited data

Results flagged for a closer look

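Atp5g3, which encodes a c subunit of ATP synthase, had 1 DMSO library far from the other 3: DMSO replicate 4 was at 176.0 CPM, where the others were between 197.9 and 201.2 CPM. This was the single such gap in 68 checks of a named gene in a group of 4 libraries. Chance gives such a gap in about 1 in 20 groups.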

How the results depend on the processing

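The number of members called lower, 32, ran from 23 to 44 over all settings and from 28 to 40 with single libraries left out. The settings did not all test the same number of genes. The 44 came without the filter on low counts, where 30932 genes were tested against 15133 in the main fit. A count of 23 came without DS38 replicates 1 and 2, where 14.8% of all genes were lower, against 20.7% in the main fit. The same count came without the libraries numbered 1 and with the length adjustment. The number called higher, 2, was 8 with library totals alone, 11 with the length adjustment, 13 with transcript length, 10 with the replicate block and length adjustment together, 9 without both libraries numbered 1, 14 without them and with the length adjustment, 8 without DS38 replicates 1 and 2, and 1 without DS38 replicates 3 and 4. It ran from 1 to 7 with single libraries left out. In complex III, 3 genes lower became 5 with limma-voom, without robust fitting and without the filter, and 1 without the libraries numbered 1 and with the length adjustment or without DS38 replicates 1 and 2 (2 to 5 with single libraries left out). In complex IV, 4 became 8 without the filter, 7 without DS38 replicates 3 and 4, and 2 without the libraries numbered 1 and with the length adjustment (4 to 7 with single libraries left out). In complex I, 18 became 11 without DS38 replicates 1 and 2, and the 2840 genes called higher in all became 1780. The cause was not tested. Of 22 named members that were called, 15 kept their call in all 23 settings; the exceptions were Atp5g1, Cox5a, Cox8a, Cyc1, Ndufv1, Uqcrfs1 and Uqcrh. The transcript-length fit and the fits without a pair of DS38 libraries were chosen after seeing the data.

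With the replicate number as a block, 35 members were lower and 3 higher, 5 of the lower ones in complex III. Of all 15133 genes tested, 5594 were then called, 3048 lower and 2546 higher. Deviations of same-numbered libraries correlated at 0.3308, -0.0699, 0.067 and -0.0816. The libraries numbered 1 correlated best with each other, but not every other library correlated best with its own number. Whether same-numbered libraries share more than a number was not tested.

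Cox7a1, Cox6b2, Cox7b2 and Cox8c had too few counts at this depth to pass the filter and be tested.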
